A study of Mus musculus with 2 samples.

Results

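The miR-128 loci are Mir128-1 and Mir128-2, the 2 genes that encode the microRNA miR-128 in the mouse. They were found by Ensembl gene ID, and make up 2 of the 1973 miRNA genes in the count tables. The samples were hearts of Mus musculus strain B6NCrl embryos at day 11.5, male and female pooled, and the labels name no treatment or altered genotype. Replicate 1 pooled the hearts of 109 embryos, replicate 2 an unstated number of embryos, and these 2 libraries form the only group. The labels call them biological replicates from separate tissue samples. Whole hearts were sequenced, so fewer cells of a type and less RNA per cell cannot be told apart.

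A microRNA is cut from a hairpin, and its 5p and 3p strands are the 5′ and 3′ arms of that hairpin. One strand is loaded into an Argonaute protein, where bases 2 to 8, the seed, select target messenger RNAs. miR-128 is best known as a microRNA of brain neurons, where it restrains excitability, and it has been studied in the heart as a brake on the division of heart muscle cells. Both genes lie in introns of protein-coding genes, R3hdm1, which encodes an R3H domain protein, and Arpp21, which encodes a phosphoprotein regulated by cyclic AMP.

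The mature strands are printed first because they set which reads can be assigned to 1 locus. Sequences are from RefSeq, build GRCm38.p6, where both genes matched by symbol, and capitals mark the seed.
mmu-miR-128-3p: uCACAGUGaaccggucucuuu
mmu-miR-128-1-5p: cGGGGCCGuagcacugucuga
mmu-miR-128-2-5p: gGGGGCCGaugcacuguaagaga
The 3p strand, miR-128-3p, is 21 bases long and has the same sequence at both loci. The 5p strands are 21 bases long at Mir128-1 and 23 bases at Mir128-2, and their longest common run is 7 bases. A run of that length, GGGGCCG, is the seed of both, so the 5p strands share a seed. The rest of their sequence is alike in part, as in the run gcacugu found in both, but is not identical. Of 1679 mature mouse sequences in the RefSeq table, no others had the seed GGGGCCG at bases 2 to 8.

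The hairpins show how far the shared stretch reaches, with their longest common run in capitals.
Mir128-1 hairpin: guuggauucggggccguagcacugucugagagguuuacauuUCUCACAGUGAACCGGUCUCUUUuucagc
Mir128-2 hairpin: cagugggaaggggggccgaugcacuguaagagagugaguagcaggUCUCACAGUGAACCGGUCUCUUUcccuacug
The common run is 23 bases, from position 42 to 64 in the 70-base hairpin of Mir128-1 and from 46 to 68 in the 76-base hairpin of Mir128-2. It takes in miR-128-3p and 2 bases before it, and 0 bases after it. The base that follows miR-128-3p is U at Mir128-1 and C at Mir128-2, so a 3p read extended by 1 genomic base would differ between the loci. In the minimum free energy fold predicted by RNAfold, all 7 seed bases of miR-128-3p pair with the 5p strand in both hairpins. Predicted folding energies were -29.3 kcal per mol for Mir128-1 and -37.3 kcal per mol for Mir128-2.

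Runs of 20 bases were then followed along each hairpin. At Mir128-1, 4 of 51 such runs also occur in the Mir128-2 hairpin, and at Mir128-2 it is the same 4 of 57. Both 20-base runs of miR-128-3p are among the shared ones. None of the 2 runs of miR-128-1-5p, nor of the 4 runs of miR-128-2-5p, occurs in the other miR-128 hairpin. A search of both strands of 141767 GENCODE M21 transcripts found 0 of these 20-base runs outside the miR-128 genes; the genome outside transcripts was not analysed here. By the layout of the tables, reads that map to several places stand in a multimapping row and on no gene. That row held 12025096 reads in replicate 1, 20.8% of all reads, and 1174235 reads in replicate 2, 24.1%. The counts below are therefore of reads placed at 1 locus. They do not measure the total of miR-128-3p, and the files do not say from which strand of the hairpin a read came.

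**Figure D1:**
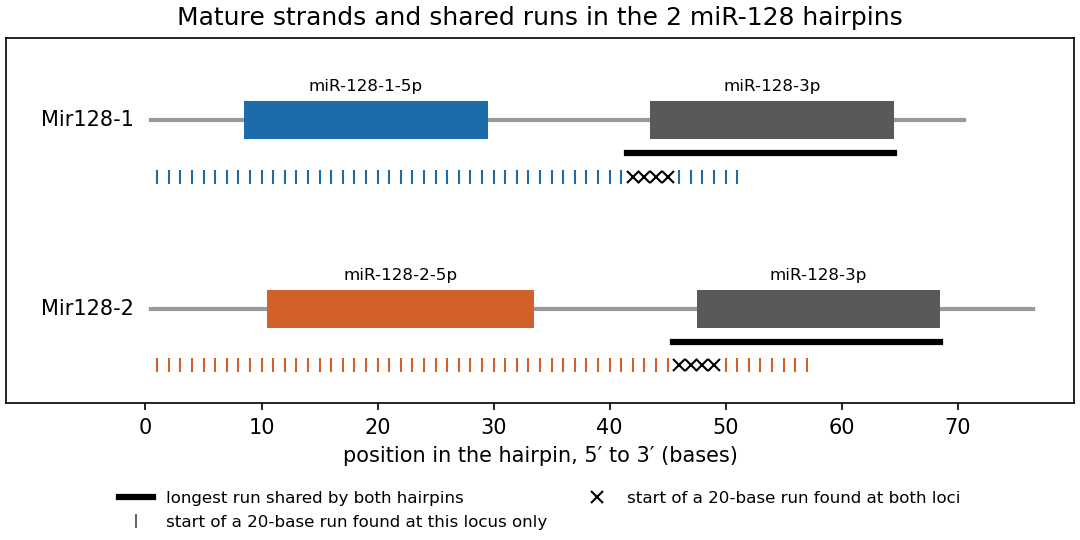
The hairpins of Mir128-1 and Mir128-2 drawn to scale, with position in bases on the x axis, boxes for the mature strands, a black bar for the 23-base common run and a tick or cross at the start of each 20-base run. The 4 crosses in each hairpin, which mark runs found at both loci, start at or beside miR-128-3p, and runs that start elsewhere occur at 1 locus only.

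Mir128-1 (ENSMUSG00000065520.1 in the table) lies on chromosome 1 from 128202361 to 128202430, on the plus strand (GRCm38, also called mm10). It is in an intron of R3hdm1, 99.1 kb from the start of that gene, which spans 128103301 to 128237736 on the same strand. Of 16 annotated R3hdm1 transcripts, 2 span the hairpin and 0 have an exon over it; the nearest exon of these is 5264 bp away. Mir128-2 (ENSMUSG00000065441.1) lies on chromosome 9 from 112118636 to 112118711, on the minus strand. It is in an intron of Arpp21, 117 kb from the start of that gene, which spans 112065091 to 112235938 on the same strand. Of 31 annotated Arpp21 transcripts, 9 span the hairpin and 0 have an exon over it; the nearest exon is 472 bp away. Positions are those of M21, which lists both genes as version 2, while the counted annotation M4 has version 1, whose boundaries were not analysed here. No other counted miRNA gene with an M21 position lies within 50 kb of either locus. The host messenger RNAs are not in the tables.

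Replicate 1 was the deeper library, with 18467499 own-strand counts over all miRNA genes, 9.15 times the 2017294 of replicate 2. With 3 counts as the floor, a gene without reads could reach 0.162 CPM (own-strand counts scaled to a library total of 1000000) in replicate 1 and 1.49 CPM in replicate 2. The heart muscle miRNAs Mir208a, Mir208b and Mir499 were all detected, the lowest of them, Mir499, at 1795 ± 186 CPM (SD, n = 2). Genes taken as markers of smooth muscle (Mir143, Mir145a), endothelium (Mir126a) and red cells (Mir451a, Mir144) were detected as well, from 157 to 94938 CPM. Whether they are limited to these cells at day 11.5 was not analysed here. Which of these cells hold miR-128 was not tested.

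Reads were placed at both miR-128 loci in both libraries. Mir128-1, the copy in R3hdm1, collected 1788 own-strand reads in replicate 1 and 217 in replicate 2. These are 96.8 CPM, with an exact 95% Clopper-Pearson interval of 92.4 to 101 CPM, and 108 CPM, with an interval of 93.7 to 123 CPM. The values overlap within counting error, and the mean level was 102 ± 7.6 CPM (SD, n = 2). Mir128-2, the copy in Arpp21, collected 348 own-strand reads in the first library and 51 in the second. These are 18.8 CPM, with an interval of 16.9 to 20.9 CPM, and 25.3 CPM, with an interval of 18.8 to 33.2 CPM. Its mean level was 22.1 ± 4.55 CPM (SD, n = 2), and the interval of the shallower library is the wider one. The levels of the loci did not overlap: the lowest value of Mir128-1 lay above the highest value of Mir128-2. The opposite strand held 0 counts at both loci in both libraries, so counting both strands left their counts as they were.

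**Figure D2:**
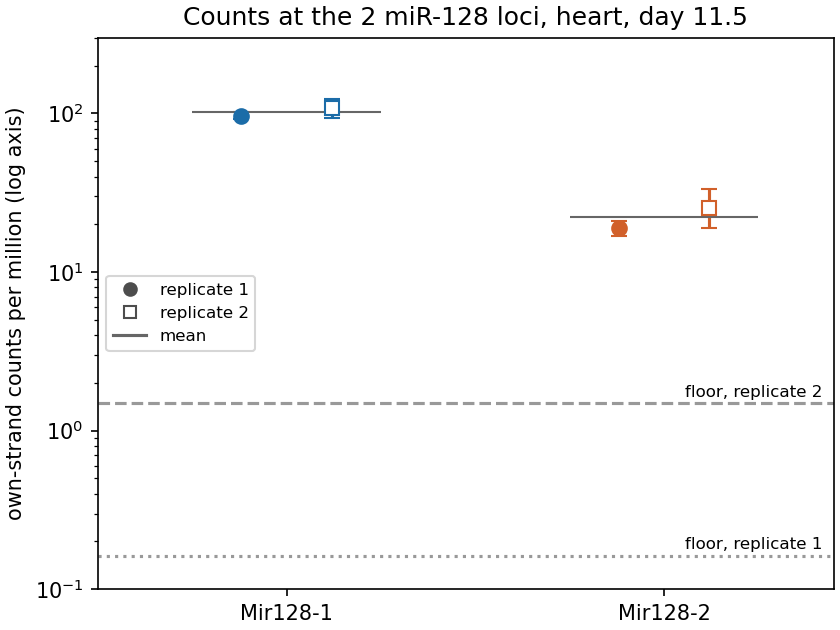
Own-strand CPM on a log axis for Mir128-1 and Mir128-2 in replicates 1 and 2, with exact 95% intervals of counting error as bars, the mean of the 2 replicates as a horizontal line, and the level that a count of 0 allows as dotted (replicate 1) and dashed (replicate 2) lines. Both loci lie above those floors, and Mir128-1, at 96.8 and 108 CPM, lies above Mir128-2, at 18.8 and 25.3 CPM.

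The first comparison was between the loci inside each library, where depth cancels. Mir128-1 gave 83.7% of the 2136 counts of both loci in replicate 1 (exact 95% Clopper-Pearson interval 82.1 to 85.3%). In replicate 2 it gave 81.0% of 268 counts (interval 75.8 to 85.5%). Mir128-1 exceeded Mir128-2 by 5.14-fold in replicate 1, with an interval of 4.58 to 5.78, and by 4.25-fold in replicate 2, with an interval of 3.12 to 5.89. The mean log2 ratio was 2.23 ± 0.19 (SD, n = 2), a 4.68-fold difference. This was larger than the spread, a phrase used here where the libraries share a direction, equality lies outside the exact interval of each, and the mean log2 ratio is greater than its SD. A sign-flip test on 2 libraries cannot give a two-sided p below 0.5, and none was run. The ratio did not differ detectably between the libraries (Fisher's exact test, two-sided p = 0.258, odds ratio 1.21). Per base of the annotated hairpin the mean log2 ratio was 2.34. A read of miR-128-3p with an extra U at its end would match the Mir128-1 hairpin and not that of Mir128-2, whichever locus made it. With an extra C the reverse holds. Neither such reads nor how well each 5p or 3p read is captured and ligated was tested. The ratio therefore compares counts and not amounts of RNA.

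Other miRNA genes with 2 numbered loci give the range of such ratios. The table holds 35 pairs whose symbols differ only in a final 1 or 2, of which 10 had no count at all and 16 had 10 or more counts at both loci in both libraries. Among these 16, Mir128 ranked 6 by the size of its log2 ratio, against a median size of 1.72. The ratio was larger than the spread in 13 of the 16 pairs, 81.2%, so an unequal split between loci is not particular to Mir128. Mir181b was the most unequal, with a mean log2 ratio of -6.04 ± 0.32, its second locus being 65.7-fold higher. Mir194 was the most even, at -0.03 ± 0.09. The first locus was higher in 8 pairs and the second in 8.

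The layout of the miR-128 strands, with 1 mature sequence common to both loci and 1 of its own at each, is also common. A pair with only 1 strand listed at a locus, as for Mir129, Mir219a and Mirlet7a, cannot show it. By the strands listed, this layout was found in 20 of the 31 pairs that the RefSeq table covers, and 14 of these had enough counts. Their log2 ratios ranged in size from 0.03 to 6.04, with a median of 1.90, and 5 of the 14 were more unequal than Mir128. Mir138 and Mir218, other pairs with this layout, had their second locus higher, with log2 ratios of -0.89 ± 0.11 and -1.75 ± 0.14. They and Mir16, at 2.32 ± 0.13, were named after their values were seen.

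**Figure D3:**
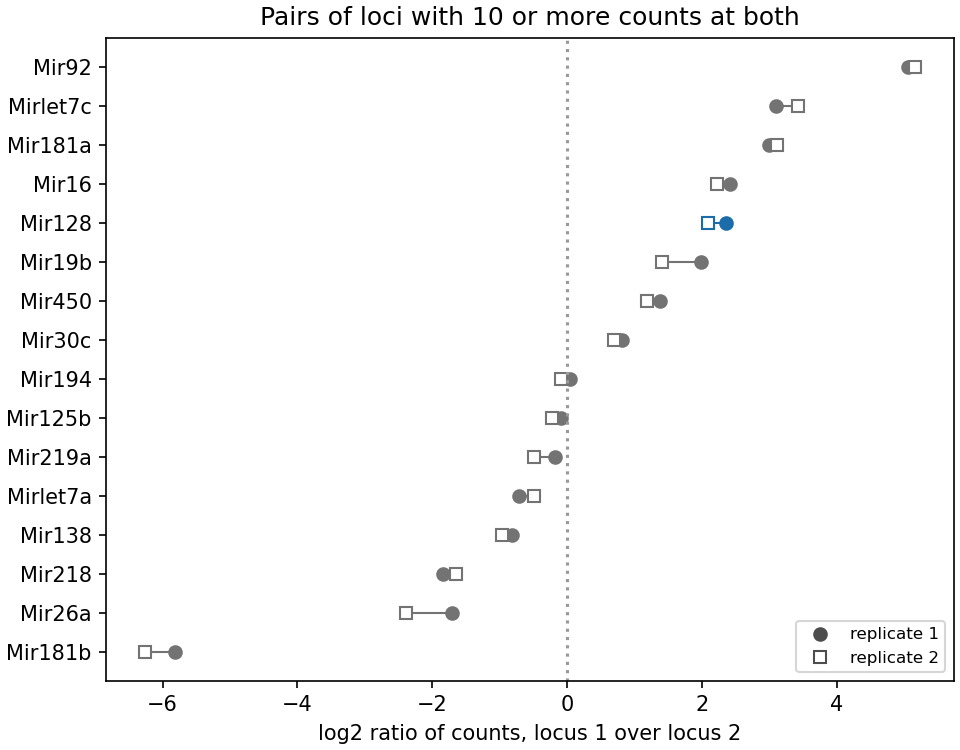
Log2 ratio of own-strand counts at the first over the second locus for the 16 two-locus miRNA genes with 10 or more counts at both, with replicate 1 as filled circles and replicate 2 as open squares. Mir128, in blue, lies at 2.36 and 2.09, inside a range that runs from Mir181b, below -5, to Mir92, above 5.

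Detection, set at 1 CPM or more in each library, held for 2 of 2 miR-128 loci and for 419 of 1973 genes, 21.2%. In replicate 2 this limit lies below the floor of 1.49 CPM. Genes with 3 counts there, such as Mir7b and Mir1a-1 of the lists below, were therefore detected at the floor. By mean level Mir128-1 ranked 198 and Mir128-2 ranked 268 of 1973. The median detected gene stood at 80.5 CPM, so Mir128-1 lay just above the middle of the detected genes, with 47.0% of them higher, and Mir128-2 lay below it, with 63.7% higher. The rank of Mir128-1 was 203 in replicate 1 and 193 in replicate 2. That of Mir128-2 was 274 and 257.

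Likeness was measured as the Euclidean distance on log2(CPM + 1) over the 2 libraries. Nearest to Mir128-1 were Mir669c at a distance of 0.15, Mir1981 at 0.16 and Mir673 at 0.18. Mir673, at 101 and 95.7 CPM, did not differ from Mir128-1 beyond counting error in either library, while Mir669c and Mir1981 did in replicate 1 only. Nearest to Mir128-2 were Mir129-2 at 0.35, Mir137 at 0.39 and Mir582 at 0.42. Each of these 3 differed from Mir128-2 beyond counting error in replicate 1 but not in replicate 2. With 2 libraries such a distance reflects the level more than any pattern.

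miR-128 is usually counted among neural miRNAs, so the loci were set beside a list of these, chosen with earlier results of these data known. Ranks within it depend on that choice. The list has 19 genes in the table, 13 of them detected, against 21.2% of all genes. Its median level was 11.7 CPM, below both miR-128 loci, and its summed level was 354 CPM in replicate 1 and 290 CPM in replicate 2. Mir128-1 was higher than each of the 19 in both libraries. Of the 19, 11 are numbered copies that, like the miR-128 loci, can lose shared reads, so this ranks reads placed at 1 locus. The closest to Mir128-1 was Mir132, an activity-regulated miRNA of neurons, at 81.9 and 76.3 CPM. Mir128-1 exceeded Mir132 1.29-fold (log2 ratio of Mir132 over Mir128-1, -0.37 ± 0.18), which was larger than the spread.

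Mir128-2 lay in the upper part of the list by mean level, with 6 of the 19 genes above it and 13 below. Higher than it in both libraries were 3 genes: Mir132, Mir7-1 at 50.5 and 46.6 CPM, and Mir325 at 39.5 and 27.3 CPM. The log2 ratio of Mir325 to Mir128-2, 0.59 ± 0.68, was not larger than the spread; those of Mir132 and Mir7-1 were. Mir137, a regulator of neural progenitors, stood at 24.7 and 23.3 CPM, above Mir128-2 in replicate 1 and below it in replicate 2. Its log2 ratio to Mir128-2 was 0.14 ± 0.36, which was not larger than the spread. Mir153, at 17.9 and 18.3 CPM, and Mir346 did not differ from Mir128-2 beyond the spread either.

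The neural miRNAs best known for their abundance in brain were at or near 0. Mir124a-1, Mir124a-3 and Mir9-2 had 0 counts in both libraries. Mir124a-2 had 3 counts and Mir9-3 had 24 counts in replicate 1, and both had 0 in replicate 2. These genes have several loci and, like miR-128-3p, can lose reads to the multimapping row, so their counts do not measure miR-124 or miR-9. Of the 8 list members without a numbered copy, all 8 were detected, against 21.2% of all genes, with or without numbered copies. The muscle list below has 7 such members, and all 7 were detected, so this is not particular to the neural list. The part of neural tissue or nerves in the counts of miR-128 was not tested.

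**Figure D4:**
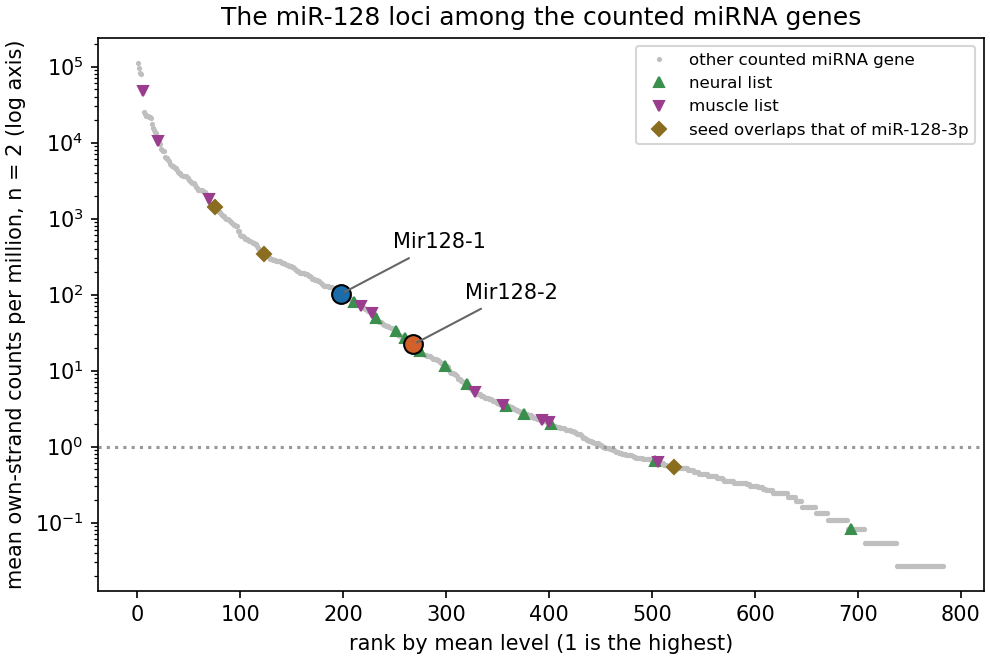
Mean own-strand CPM (n = 2, log axis) against rank for every miRNA gene with a count in either library, with the neural list, the muscle list, genes whose mature seed overlaps that of miR-128-3p and the 2 miR-128 loci marked, and a dotted line at 1 CPM. Mir128-1, at 102 CPM, lies above each neural list gene and below Mir27a and Mir27b, and Mir128-2, at 22.1 CPM, lies among the neural list genes.

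The muscle list held genes both above and below the loci. The table has 10 of its genes, of which 9 were detected, against 21.2% of all genes. By mean level 7 lay below Mir128-1 and 5 below Mir128-2, and the 3 above Mir128-1 in both libraries were Mir208b, Mir208a and Mir499, which lie in introns of myosin heavy chain genes. Mir208b exceeded Mir128-1 473-fold and Mir499 exceeded it 17.5-fold, both by more than the spread. Mir486, a miRNA of muscle and red cells, and Mir206, of skeletal muscle, lay between the miR-128 loci. Mir486 stood at 89.5 and 52.5 CPM, and its log2 ratio to Mir128-1, -0.57 ± 0.65, was not larger than the spread. Mir206 stood at 65.6 and 48.6 CPM, 1.81-fold below Mir128-1 and 2.59-fold above Mir128-2, by more than the spread in both cases. Mir1b, at 2.10 ± 0.17 CPM, and Mir133b, at 5.20 ± 1.76 CPM, lay below both loci. Mir1a-1 and the Mir133a loci did so too, but these are multi-locus genes too, and their counts leave out shared reads. Whether Mir486, Mir206, Mir1b and Mir133b also lose reads shared with other loci was not analysed here.

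The seed of miR-128-3p reads CACAGUG. Other miRNAs carry these 7 bases at a shifted position, and are printed to show the overlap, with the shared bases in capitals.
mmu-miR-27a-3p: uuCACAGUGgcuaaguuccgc
mmu-miR-27b-3p: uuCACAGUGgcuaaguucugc
mmu-miR-216a-3p: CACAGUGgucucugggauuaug
Of 1679 mature sequences, only miR-128-3p has the 7 bases at positions 2 to 8. miR-27a-3p and miR-27b-3p, known from blood vessels and fat, have them at positions 3 to 9, and miR-216a-3p, of the pancreas, at positions 1 to 7. A shared run of letters is a description and does not show shared targets.

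The miR-27 genes were the more highly counted of these. Mir27b had 25040 counts in replicate 1 and 2981 in replicate 2, or 1356 and 1478 CPM. Mir27a had 5687 and 740 counts, or 308 and 367 CPM. Mir27b exceeded Mir128-1 13.9-fold and Mir27a exceeded it 3.29-fold, both by more than the spread. Against Mir128-2 the folds were 64.9 and 15.4. Mir216a had 20 counts in replicate 1 and 0 in replicate 2. These folds set miR-27 reads against the reads placed at single miR-128 loci and leave out reads of miR-128-3p common to both.

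The libraries were last compared with each other, which compares 2 libraries and not conditions. Mir128-1 was 1.11-fold in replicate 2 relative to replicate 1, with an exact interval of 0.961 to 1.28. Its log2 ratio of 0.15 was close to the median size of 0.15 over the 419 detected genes (exact binomial test, p = 0.144, adjusted p = 0.337). Mir128-2 was 1.34-fold in replicate 2, with an interval of 0.980 to 1.80. Its log2 ratio of 0.42 was exceeded in size by 94 of the 419 genes (exact binomial test, p = 0.0531, adjusted p = 0.15). Both intervals include equality, and neither locus was called at an adjusted p of 0.05 and 2-fold, where 11 of 419 genes were, 2.63%. Without a fold minimum 123 genes passed, 29.4%, and neither locus was among them. At an unadjusted p of 0.05, which 146 of 419 genes passed, 34.8%, the count of members was 0 of 2. edgeR's exact test called 4 of 419 genes, 0.955%, and 0 of 2 members; its dispersion was estimated from the same 2 libraries, so the difference tested also enters the spread. The 51 counts of Mir128-2 in replicate 2 leave room for a difference of up to 1.80-fold that was not detectable at this depth.

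**Figure D5:**
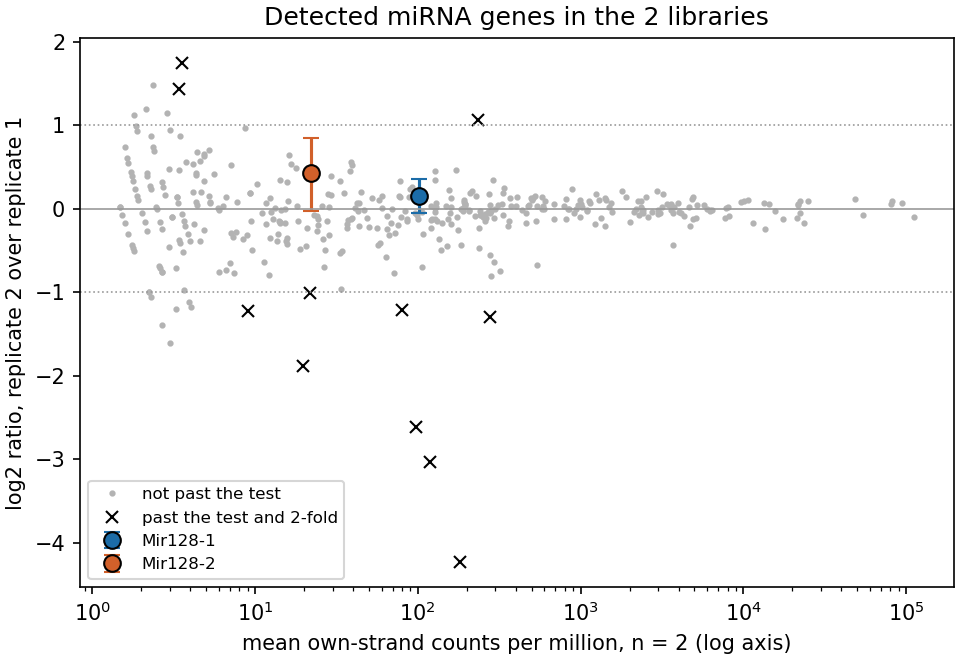
Log2 ratio of replicate 2 over replicate 1 against mean own-strand CPM (log axis) for the 419 detected genes, with crosses for the 11 past the test and 2-fold, dotted lines at 2-fold and the miR-128 loci with exact 95% intervals. Mir128-1, at 0.15, and Mir128-2, at 0.42, both have intervals that reach equality.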

How the data were processed

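The authors deposited raw counts of reads per miRNA gene for each library, on build mm10 with the GENCODE annotation M4, per the file headers. An aligner or counter is named in none of the sources used here. The files hold 3 unlabelled count columns, taken from their layout as both strands, own strand and opposite strand; own and opposite strand summed to the first column in every gene. The 4 summary rows name no gene and were left out of totals and tests; unmapped reads were 38.4% and 27.5%, and reads on no gene 8.77% and 7.04%, in replicates 1 and 2.

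Own-strand counts were scaled to 1000000 per library over the miRNA genes (CPM). GENCODE M21 gave symbols for 1894 of 1973 genes. Intervals are exact 95% Clopper-Pearson intervals. Like the floors of 3 counts, they take in counting error alone, because the reads carry no molecular identifiers and are not independent. Libraries were compared by a two-sided exact binomial test over the 419 genes at 1 CPM or more in both, with Benjamini-Hochberg adjustment. That test was run on simulated counts with Poisson error alone, which cannot show how it behaves where libraries vary by more than counting error. Fisher's exact test of the locus ratio was added after the counts were seen. Software was scipy 1.17.1, edgeR 4.0.16, DESeq2 1.42.0 and RNAfold 2.7.2.

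Genes named were the 2 loci, the 3 nearest to each, up to 4 members per list by level, and the most and least equal pairs; further list members were named after their values were seen. The members and lists were chosen with earlier results of these data known. Of 25 listed neural symbols, which include alternative names, 19 were in the table, as were 10 of 12 muscle symbols. Alternatives were both strands, TMM and DESeq2 scaling, all reads as the total, other pseudocounts, detection limits and run lengths, edgeR's exact test, and each replicate left out.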

Additional observations from a re-analysis of the deposited data

How the results depend on the processing

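The levels of both loci moved by less than 1 SD with both strands and with TMM or DESeq2 scaling. With either replicate left out the level is that of the other one, 96.8 or 108 CPM for Mir128-1 and 18.8 or 25.3 CPM for Mir128-2, which is no check of stability. Scaled to 1000000 of all reads in the file, a larger total by construction, the levels were 37.7 for Mir128-1 and 8.24 for Mir128-2. Over 6 alternatives the log2 ratio of the loci ran from 2.09 without replicate 1 to 2.36 without replicate 2. Counting both strands cannot change it, and leaving out a replicate returns the ratio of the other library. Pseudocounts and hairpin length were too small to reverse it, so its kept direction is no check. The log2 ratios between libraries ran over 6 alternatives from 0.14 to 0.17 for Mir128-1 and from 0.41 to 0.44 for Mir128-2. Dropping the count filter or the fold minimum cannot change these ratios. The other settings mainly rescale the library totals, so the kept direction is no check here either. Under the exact binomial test neither locus was called, with adjusted p from 0.33 to 0.536 for Mir128-1 and from 0.146 to 0.26 for Mir128-2. Genes called between the libraries numbered 11, against 4 by edgeR's exact test, whose dispersion comes from the same 2 libraries (adjusted p = 1 for both loci, so no independent check), and 123 with no fold minimum. Genes detected ranged from 324 to 455. With runs of 18 or 22 bases in place of 20, 0 occurred in other hairpins; in other M21 transcripts 2 runs of 18 bases from Mir128-2 did occur, and 0 runs of 22. No paired analysis was possible because there is 1 group. Depth limits Mir128-2 most, with 51 counts in replicate 2.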
